A study of Mus musculus with 7 samples.

Results

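The drug and conjugate efflux pumps examined here are 9 genes chosen by symbol, namely Abcc1, Abcc2, Abcc3, Abcc4, Abcc5, Abcb1a, Abcb1b, Abcg2 and Abcb6, out of the 26607 genes listed for each library. All 9 symbols were found, and each had at least 1 read in at least 1 library. They were measured by RNA-seq in cultures of C2C12, an established mouse myoblast line, that had been differentiated into myotubes, with 3 control libraries (replicates 1, 3 and 4; no treatment) and 4 libraries of myotubes given electrical pulse stimulation (EPS, replicates 1 to 4). Stimulation began on day 3 of differentiation, lasted 24 h and ended 1 h before harvest, and no genotype or drug distinguished the groups. The model is a single cell line stimulated in a dish, without nerve, blood vessels or the organs that clear drugs, and contraction is not given in the labels. The labels also do not state whether the libraries came from separate cultures, so the p-values measure the spread between these libraries, which may be technical.

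The pumps belong to the ATP-binding cassette (ABC) family, membrane proteins that spend ATP to drive cargo out of the cytosol. The multidrug resistance-associated proteins of the ABCC subfamily export organic anions, among them compounds that detoxifying enzymes have joined to glutathione, glucuronic acid or sulphate. P-glycoprotein, encoded in the mouse by the paralogs Abcb1a and Abcb1b, and Abcg2, the breast cancer resistance protein, expel a broad range of drugs, while Abcb6 works as a dimer and is linked to porphyrins. Liver, intestine, kidney and the blood-brain barrier are the tissues best known for these pumps, and the oxidative stress factor NRF2 and the aryl hydrocarbon receptor are among the factors known to act on several of their genes.

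The stretches just upstream of RefSeq start sites are shown for 3 pumps. Abcc4 was the one pump called between the groups, Abcb6 lay at the edge of the call, and Abcc2 held a motif match although its transcript was nearly absent. The sequences are those of RefSeq on GRCm38.p6, which matched 7 of the 9 pumps with 10 start sites. They run 5′ to 3′ along the gene's strand for the 250 bases that end at the base before the start site, and capitals mark matches to TGACNNNGC or GCGTG.
Abcc4, start site 118706219, minus strand, chr14:118706220-118706469: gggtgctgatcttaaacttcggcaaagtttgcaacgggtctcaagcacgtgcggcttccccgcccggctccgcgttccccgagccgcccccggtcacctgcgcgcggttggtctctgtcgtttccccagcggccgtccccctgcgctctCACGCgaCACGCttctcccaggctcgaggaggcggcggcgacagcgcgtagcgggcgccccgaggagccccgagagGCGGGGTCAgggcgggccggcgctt
Abcc4, start site 118676931, minus strand, chr14:118676932-118677181: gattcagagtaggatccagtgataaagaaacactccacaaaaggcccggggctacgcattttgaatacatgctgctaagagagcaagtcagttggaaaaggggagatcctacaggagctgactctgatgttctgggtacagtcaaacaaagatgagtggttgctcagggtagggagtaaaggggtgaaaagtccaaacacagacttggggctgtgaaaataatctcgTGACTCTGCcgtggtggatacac
Abcb6, start site 75180392, minus strand, chr1:75180393-75180642: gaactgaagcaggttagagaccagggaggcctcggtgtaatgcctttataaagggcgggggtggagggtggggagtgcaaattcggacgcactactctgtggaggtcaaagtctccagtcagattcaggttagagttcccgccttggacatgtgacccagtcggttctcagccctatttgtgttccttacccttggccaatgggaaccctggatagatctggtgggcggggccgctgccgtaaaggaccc
Abcc2, start site 43782308, plus strand, chr19:43782058-43782307: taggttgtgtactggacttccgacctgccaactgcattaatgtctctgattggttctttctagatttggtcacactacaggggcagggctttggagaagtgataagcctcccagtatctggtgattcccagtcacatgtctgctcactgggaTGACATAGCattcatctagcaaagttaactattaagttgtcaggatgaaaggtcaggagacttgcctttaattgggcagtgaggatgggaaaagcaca

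In each window, both strands were searched for TGACNNNGC (the core of the antioxidant response element, which NRF2 binds), GCGTG (the core of the xenobiotic response element, which the aryl hydrocarbon receptor binds) and TGANTCA (the AP-1 site, whose letters can overlap those of the antioxidant core). The first Abcc4 window held 1 antioxidant core, GCGGGGTCA on the opposite strand, from 25 to 17 bases before the start site, and 2 xenobiotic cores, from 101 to 97 and from 94 to 90 bases before it. The second Abcc4 window held TGACTCTGC, from 23 to 15 bases before its start, and the Abcc2 window held TGACATAGC, from 98 to 90 bases before its start. None of these letters were found in the windows of Abcb6, Abcc5, Abcb1a, Abcb1b or Abcg2, and none of the 10 windows held TGANTCA. The Abcb1a window lies before a RefSeq start site at 8567091 on chromosome 5. This is upstream of the start of the gene in the annotation used for positions here (8660077), so the stretch before that start was not searched. In that annotation Abcc2 starts at 43782192, so its match lies inside the gene. The second Abcc4 window lies inside Abcc4 as annotated there, and the Abcg2 windows lie wholly or partly inside Abcg2. Over all 32851 windows of this length in the table, 10.2% held TGACNNNGC, 28.2% held GCGTG and 6.75% held TGANTCA. These matches describe letters and not binding, which was not measured.

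Whole reads could be recovered from the CPM (a gene's reads per 1e6 reads of its library), and the library totals ranged from 16616917 to 22120641 in the control group and from 18830229 to 21892568 in the EPS group. A level of 3 reads, between 0.136 and 0.181 CPM, was taken as the floor, which covers counting error only. Control replicate 4 stood apart, with 359 genes at 1 to 5 reads, where each of the other libraries had between 2670 and 3181. Against the mean of control replicates 1 and 3 on the log2(CPM + 1) scale, it was higher for short transcripts and lower for long ones, from a median difference of 0.31 in 760 genes under 1000 bases to -0.33 in 1490 genes of 6000 bases or more. Among the pumps, 6 with transcripts of 4306 to 6792 bases were lower there by 0.24 to 0.50, while Abcb6 was higher by 1.02, although its length of 2966 bases falls in a class of 4901 genes, from 2000 to 4000 bases, with a median difference of -0.037. Results of the 7 pumps detected in the control group are therefore also given without this library, and the plot of control replicate 4 against transcript length shows both groups of pumps. The myotube label was met by the markers: all 12 myotube genes, such as Ckm and Myog, were present, with summed levels of 19344 to 20940 CPM in the control and 13088 to 20022 CPM in the EPS group. None of the 12 was called, and 3 of them (Actn2, Mybph and Atp2a1) were lower in EPS at a P under 0.05 in limma. The 5 myoblast markers summed to 1777 to 2499 CPM in the control and 1328 to 1751 CPM in the EPS group, without overlap. None was called, and Myod1 was lower at a P under 0.05. The part of these cell state markers in the pump differences was not tested. Markers of endothelium, macrophages, hepatocytes and adipocytes summed to at most 8.06 CPM per library, and Tie1, Emcn, Emr1, Alb, Apoa1, Serpina1a, Cyp2e1, Plin1 and Lep had 0 reads throughout. The 8 cycling markers, among them Mki67 and Top2a, summed to 281 to 386 CPM in the control and 439 to 1255 CPM in the EPS group, highest in EPS replicate 4. Of these 8, 7 were higher in EPS at a P under 0.05 in limma and 1, Birc5, was called, with a median log2 fold change of 0.97 over the list. In these bulk libraries, a different share of cells and a different amount of RNA per cell cannot be told apart.

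**Figure D1:**
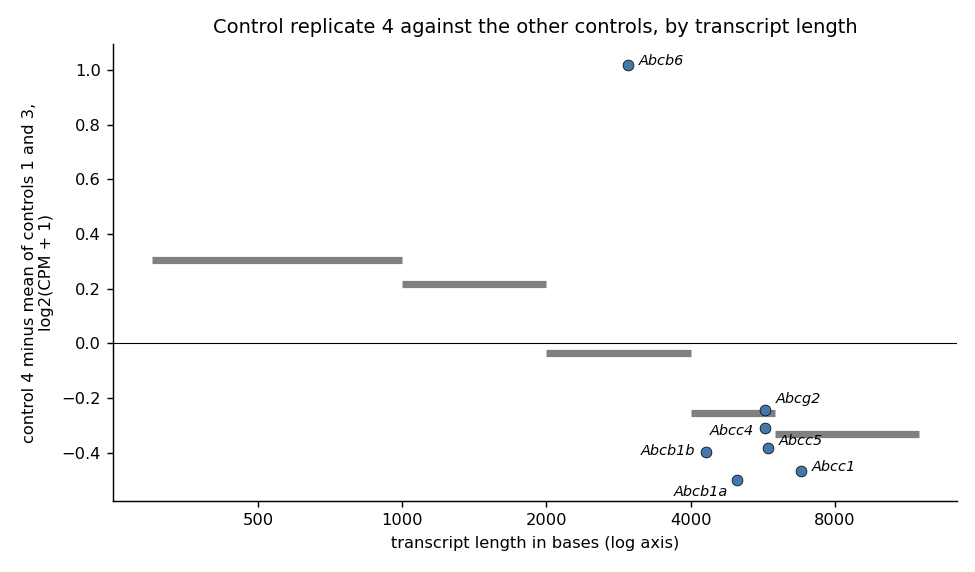
Difference between control replicate 4 and the mean of control replicates 1 and 3 on the log2(CPM + 1) scale (vertical axis) against transcript length in bases (log axis); grey bars are medians over genes with a mean of at least 1 CPM, the outermost of which stand for open-ended length classes, and points are the 7 pumps detected in the control group. Abcb6 lies at 1.02 and the 6 longer pump transcripts between -0.50 and -0.24.

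EPS against control asks which transcripts differed in stimulated myotubes. Abcc2 and Abcc3 had no reads in the control group and could only lie above it, so directions and overlap are summarised over the 6 pumps with a mean of at least 1 CPM over all libraries (Abcc1, Abcc4, Abcc5, Abcb1b, Abcg2 and Abcb6). All 6 had a log2 fold change above 0, as did 63.6% of the 12256 genes with such a mean, and their median was 0.63, where the median over those genes was 0.10. Abcc4 rose, and was the only 1 of the 9 pumps called, a call being a difference of more than 2-fold with a P under 0.01, not adjusted, in limma. Of all tested genes 1.41% were called, 0.966% higher in EPS and 0.439% lower. At a P under 0.01 alone there were 2 of 9 (Abcc4 and Abcc1), both higher in EPS, where 4.17% of all genes passed in either direction and 2.83% were higher, and at a P under 0.05 there were 4 of 9 (with Abcb6 and Abcb1a), all higher in EPS, where 11.6% of all genes passed in either direction and 8.4% were higher. After Benjamini-Hochberg adjustment over all genes, 0 pumps had an adjusted p under 0.05 in limma, against 0.141% of all genes. Abcc4 passed this level in limma when only genes with a mean of at least 1 CPM were tested (adjusted p = 0.0419). It also passed in edgeR and DESeq2 run on the recovered reads. More genes passed in these settings. In limma with that minimum mean, 121 of 12256 genes did, where 27 of 19144 did in the main fit. Of 19144 genes, 283 to 290 passed in edgeR's quasi-likelihood test, 472 in its exact test and 497 in DESeq2. Every EPS library lay above every control library in 4 of the 6 pumps (Abcc1, Abcc4, Abcc5 and Abcb6), as in 9.18% of genes with such a mean, and after median-of-ratios scaling in 2 of the 6 (Abcc1 and Abcc4), as in 5.76% of those genes. Of the sparse pumps, Abcb1a did so on few reads, where 7.76% of all tested genes did. Median-of-ratios scaling moved the median log2 fold change of all genes with a mean of at least 1 CPM from 0.10 to -0.0048, so differences of that size on the deposited scale depend on the scaling. It also moved the share of calls that were higher in EPS, from 68.8% to 52.8%. With 3 libraries against 4, an exact two-sided permutation test cannot give a p below 0.0571. That was its value for Abcc1, Abcc4, Abcc5, Abcb6 and Abcb1a, and for Abcc3, which could only lie above its control.

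**Figure D2:**
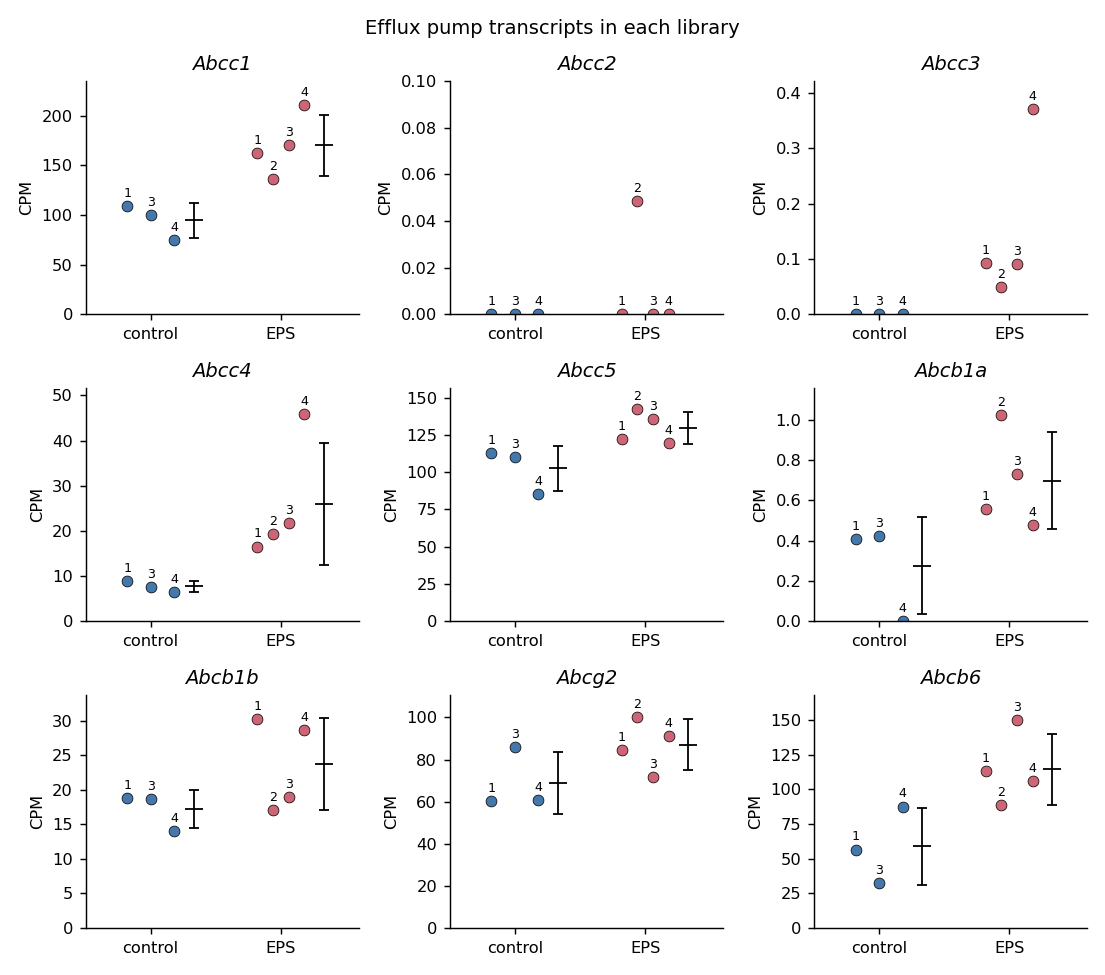
CPM of the 9 pumps (vertical axes, each from 0) in the 3 control and 4 EPS libraries, with the replicate number above each point and the mean ± SD as a black bar beside each group, left out for Abcc2 and Abcc3. Abcc4 lies between 6.46 and 8.92 CPM in the control and between 16.5 and 45.9 CPM in the EPS libraries.

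Among the exporters of conjugates, Abcc4 (ENSMUSG00000032849.14, minus strand of chromosome 14 of GRCm38 from 118482692 to 118706219, 31 exons) encodes MRP4, which carries cyclic nucleotides, prostaglandins and bile acid conjugates. Its level was 8.92, 7.64 and 6.46 CPM in control replicates 1, 3 and 4, and 16.5, 19.4, 21.7 and 45.9 CPM in EPS replicates 1 to 4. The groups were well apart, and EPS replicate 4 was more than double the next library. The control mean of 7.68 ± 1.23 CPM (SD, n = 3) compares with 25.9 ± 13.5 CPM (SD, n = 4) under EPS, a 3.37-fold difference. In limma the log2 fold change was 1.53 with a standard error of 0.34 and a 95% interval from 0.76 to 2.30 (adjusted p = 0.123). Without EPS replicate 4 it was 1.22 and was still called, and without control replicate 4 it was 1.42. Its P in limma did not pass 0.001, the threshold of the study's methods. The adjusted p on the recovered reads was 0.00746 by quasi-likelihood in edgeR and 0.000474 by DESeq2. EPS replicate 4 was also the library with the most reads of the cycling markers, at 1255 CPM, and EPS replicate 1, with the next highest sum of 879 CPM, had the lowest Abcc4 level of the EPS group. The part of cell cycling in the Abcc4 difference was not tested.

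Abcc1 (ENSMUSG00000023088.17, plus strand of chromosome 16 from 14361558 to 14475737, 31 exons) encodes MRP1, the exporter of leukotriene C4, glutathione conjugates and oxidized glutathione. It stood at 109, 99.8 and 75.2 CPM in control replicates 1, 3 and 4, and at 163, 136, 170.4 and 211 CPM in EPS replicates 1 to 4. Every EPS library was above the highest control, with EPS replicate 4 again at the top. The group means were 94.7 ± 17.5 CPM (SD, n = 3) and 170.1 ± 30.7 CPM (SD, n = 4), a ratio of 1.80. Its log2 fold change of 0.84 (standard error 0.19, 95% interval from 0.40 to 1.28, adjusted p = 0.138 from limma) passed the threshold of P but not that of 2-fold. Across all alternatives run, it lay between 0.68, without control replicate 4, and 0.95, without control replicate 1.

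Abcc5 (ENSMUSG00000022822.16, minus strand of chromosome 16 from 20331303 to 20426394, 30 exons) encodes MRP5, an exporter of cyclic nucleotides that many tissues make. Its control libraries were at 113, 110.0 and 85.1 CPM and its EPS libraries at 122, 142, 136 and 119 CPM. The groups did not touch on this scale, but the gap was narrow and closed after median-of-ratios scaling. The means were 103 ± 15.3 CPM (SD, n = 3) without and 129.9 ± 10.8 CPM (SD, n = 4) with EPS, and the log2 fold change of 0.34 (95% interval from -0.0025 to 0.69, adjusted p = 0.432 from limma) did not pass. Without control replicate 4 it was 0.22. The interval lies wholly under 2-fold.

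Abcc2 and Abcc3, which encode MRP2 and MRP3, the exporters of the bile canaliculus and of the opposite face of hepatocytes, were at the limit of detection. Abcc2 (ENSMUSG00000025194.5, chromosome 19 from 43782192 to 43840740) had 1 read in all, in EPS replicate 2, so both groups were under the floor and no fold is given. Abcc3 (ENSMUSG00000020865.16, chromosome 11 from 94343295 to 94392997) had 0 reads in each control library, and its EPS replicates 1 to 4 held 2, 1, 2 and 7 reads. Only EPS replicate 4 was above the floor, the EPS mean of 0.151 CPM did not exceed the mean floor of the control libraries, and a change was not detectable at this depth (adjusted p = 0.440 from limma). Its fitted log2 fold change depends on the setting. It was 0.19 in limma, 0.11 without EPS replicate 4 and 1.17 with a pseudocount of 0.1, and over all settings run it lay between 0.10, after removal of the length trend, and 4.62, by quasi-likelihood in edgeR without TMM. Its P was under 0.05 in some of these settings, edgeR among them, and its lowest adjusted p over the settings that gave one was 0.240. The absence of reads in the control group rests in part on replicate 4, which lacks many low genes that the other libraries hold.

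Abcb6 (ENSMUSG00000026198.15, minus strand of chromosome 1 from 75171717 to 75180392, 19 exons), the porphyrin-linked transporter, was the pump on the edge of the call. Control replicates 1, 3 and 4 had 56.6, 32.2 and 87.7 CPM, and EPS replicates 1 to 4 had 113, 88.6, 150.005 and 106 CPM. The control libraries were spread widely, and control replicate 4 came within 1 CPM of EPS replicate 2. The means were 58.8 ± 27.8 CPM (SD, n = 3) and 114 ± 25.9 CPM (SD, n = 4), a ratio of 1.95, and the log2 fold change of 1.03 (standard error 0.32, 95% interval from 0.32 to 1.75, adjusted p = 0.238 from limma) had a P of 0.01004, just above 0.01. Without control replicate 4, which was high for Abcb6, the log2 fold change was 1.37 and the gene was called, as it also was without EPS replicate 2 (1.15). Without control replicate 3, which was low, it was 0.67 and was not called. The annotation also places Gm29253, a processed transcript, on the same strand, and 86.6% of the 100-base windows of the Abcb6 transcript occur in it as well. How reads common to both were assigned is not given in the sources used here.

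Mitochondrial transporters of the same subfamily offer a comparison within each library that does not depend on the library's scale. For each Abcb8 read there were 2.03, 1.37 and 1.78 Abcb6 reads in the controls (replicates 1, 3 and 4), and under EPS 2.96, 2.34, 3.51 and 2.90 (replicates 1 to 4). These did not overlap between the groups. The ratio of Abcb6 to Abcb10 did overlap, and was highest in control replicate 4, at 4.54.

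Transcripts for P-glycoprotein came almost wholly from 1 of its paralogs. Abcb1b (ENSMUSG00000028970.9, chromosome 5 from 8798147 to 8866315) had 18.9, 18.7 and 14.0 CPM in the control libraries and 30.3, 17.1, 19.0 and 28.7 CPM in the EPS libraries. EPS replicates 1, 3 and 4 were above all controls, replicate 3 only narrowly, and EPS replicate 2 was below 2 of them. The means of 17.2 ± 2.75 CPM (SD, n = 3) and 23.8 ± 6.71 CPM (SD, n = 4) did not differ beyond the spread between libraries (log2 fold change 0.42, 95% interval from -0.15 to 0.99, adjusted p = 0.579 from limma, exact permutation test p = 0.229). Without control replicate 4 the log2 fold change was 0.28. EPS replicates 1 and 4, the highest for Abcb1b, were also the libraries with the highest cycling marker sums, 879 and 1255 CPM. The part of cell cycling was not tested. Abcb1a (ENSMUSG00000040584.8, chromosome 5 from 8660077 to 8748575) held 7, 7 and 0 reads in the controls (replicates 1, 3 and 4) against 12, 21, 16 and 9 under EPS (replicates 1 to 4). The EPS libraries were all higher, by as little as 2 reads. Its log2 fold change of 0.42 (95% interval from 0.067 to 0.77, adjusted p = 0.336 from limma) had a P under 0.05, but not without control replicate 4 (0.25) or EPS replicate 2 (0.33), after removal of the length trend (0.33), or in edgeR or DESeq2. With a pseudocount of 0.1 it was 1.37, so at these few reads its size depends on the pseudocount. The paralogs lie side by side on the plus strand, and 8.51% of the 100-base windows of the Abcb1a transcript occur in transcripts of Abcb1b, Abcb4 or Gm42686, and 8.89% of those of Abcb1b in transcripts of Abcb1a, Gm42686 or Gm5106, so reads from these stretches could have been assigned to either gene.

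Abcg2 (ENSMUSG00000029802.13, plus strand of chromosome 6 from 58584523 to 58695676), which expels drugs, urate and porphyrins and marks the side population of stem cells, was abundant in both groups. It stood at 60.3, 85.8 and 60.6 CPM in the control and at 84.7, 100.3, 71.6 and 91.2 CPM in the EPS libraries. The groups overlapped, since control replicate 3 exceeded EPS replicates 1 and 3. The log2 fold change of 0.34 (95% interval from -0.072 to 0.75, adjusted p = 0.514 from limma, exact permutation test p = 0.171) did not pass, and the interval lies under 2-fold. It was 0.26 without control replicate 4 and 0.51 without control replicate 3, and only the latter had a P under 0.05. The endothelial markers, a cell type known for Abcg2 and Abcb1a, summed to between 0.777 and 1.54 CPM.

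**Figure D3:**
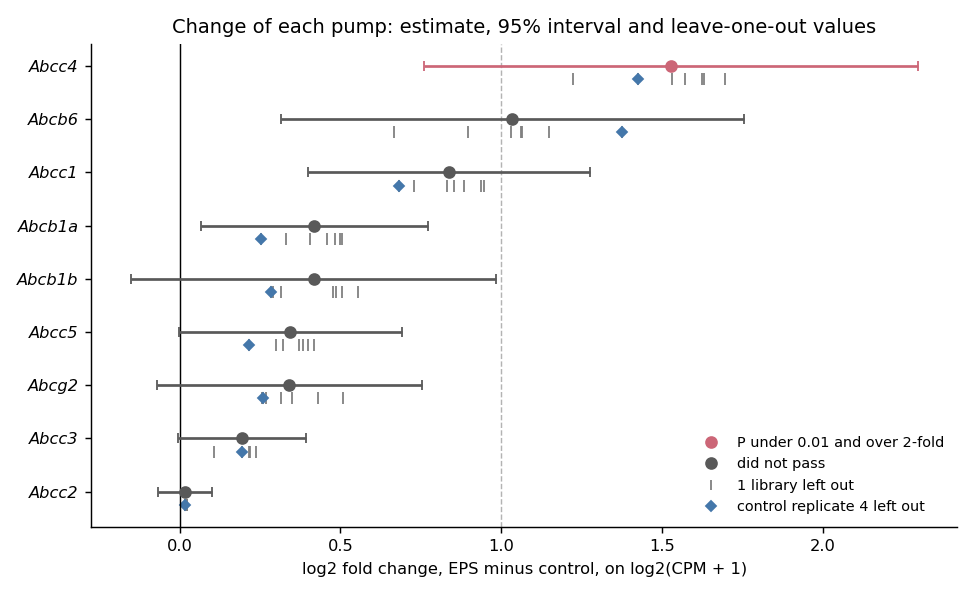
Log2 fold change of each pump, EPS minus control, on the log2(CPM + 1) scale (horizontal axis; circles with 95% intervals from limma, red where called; dashed line at 2-fold), with the values after leaving out 1 library as ticks and after leaving out control replicate 4 as diamonds. Abcc4 stays above 1 throughout, from 1.22 to 1.70, while Abcb6 ranges from 0.67 to 1.37.

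To compare levels between pumps, CPM were divided by the length of the transcript with the longest coding sequence, in CPM per kilobase. The order between pumps depends on this choice of length. All annotated exons together span 15092 bases for Abcc1 and 10681 for Abcc5, where the transcripts used have 6792 and 5811. For Abcg2 they span 8153 bases against 5717, and for Abcb6 5315 against 2966. The order by that length is not given. In the control group the order was Abcb6 (19.8 ± 9.37, SD, n = 3), Abcc5 (17.7 ± 2.63), Abcc1 (13.9 ± 2.57), Abcg2 (12.1 ± 2.56), Abcb1b (3.99 ± 0.639), Abcc4 (1.34 ± 0.215) and Abcb1a (0.0553 ± 0.0479). The ranges of the leading 4 overlapped, but within each control library Abcc5 was above both Abcc1 and Abcg2, and the place of Abcb6 changed from library to library. Abcb1b was below these 4 and above Abcc4 in each control library. In the EPS group the order was Abcb6 (38.6 ± 8.72, SD, n = 4), Abcc1 (25.05 ± 4.53), Abcc5 (22.4 ± 1.86), Abcg2 (15.2 ± 2.11), Abcb1b (5.52 ± 1.56), Abcc4 (4.53 ± 2.36) and Abcb1a (0.140 ± 0.0483). Abcb6 was highest in each EPS library, and Abcg2 below Abcc1 and Abcc5 in each, while Abcc1 was above Abcc5 in 3 of 4, with Abcc5 higher in EPS replicate 2. The place of Abcb6 depends in both groups on how reads shared with Gm29253, described above, were counted. Abcb1b and Abcc4 then overlapped, and in EPS replicate 4 Abcc4, at 8.03, exceeded Abcb1b, at 6.67. Of all pump reads per length, Abcc4 made up 1.95% ± 0.30 (SD, n = 3) in the control and 4.01% ± 1.88 (SD, n = 4) in the EPS group, so that even after its rise it was a small part of the pump transcripts.

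**Figure D4:**
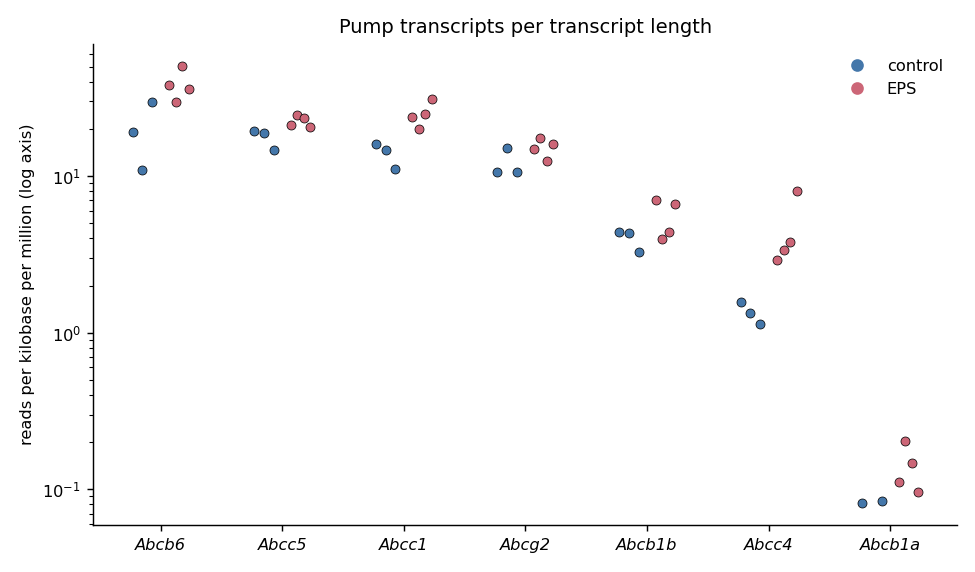
CPM per kilobase of transcript, that is, reads per kilobase per 1e6 reads (vertical log axis), of the 7 pumps detected in the control group, with 1 point per library for 3 control and 4 EPS libraries; Abcb1a in control replicate 4 is at 0 and is not drawn. Abcc4 moves from between 1.13 and 1.56 in the control to between 2.89 and 8.03 in the EPS libraries, into the range of Abcb1b.

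Ratios between pumps of one library are also free of its scale. For each Abcc1 read there were 0.0818, 0.0766 and 0.0859 Abcc4 reads in the controls (replicates 1, 3 and 4), and under EPS 0.101, 0.142, 0.128 and 0.218 (replicates 1 to 4). Each EPS library was above each control, so Abcc4 was higher also relative to Abcc1. The ratio of Abcc4 to Abcc5 was 0.0790, 0.0695 and 0.0759 in the control and 0.135, 0.136, 0.160 and 0.384 in the EPS libraries, again without overlap. The ratios of Abcc1, Abcb6, Abcg2 and Abcb1b to Abcc5 all overlapped between the groups.

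Beside the lists that follow stand the shares of all tested genes, 0.966% called higher in EPS and 0.439% lower. At a P under 0.05 in limma the share was 11.6%. In 7.76% every EPS library lay above every control, and the median log2 fold change was 0.041. The remainder of the ABC family was taken from a list of 44 further genes, of which 40 were tested. Of these, 1 was called higher in EPS and 0 lower, 4 had a P under 0.05 in limma, and the median log2 fold change was 0.11. The called gene was Abca8b, a lipid transporter, with 8.02 ± 2.85 CPM (SD, n = 3) in control and 20.6 ± 5.11 CPM (SD, n = 4) in EPS libraries (log2 fold change 1.28, standard error 0.30, adjusted p = 0.142 from limma). Of the 15 tested ABCA genes, 3 had a P under 0.05, each with every EPS library above every control, and the median was 0.15. Besides Abca8b these were Abca12 (log2 fold change 0.45, adjusted p = 0.117 from limma) and Abca13 (0.67, adjusted p = 0.123 from limma). Both passed a P under 0.01 but not 2-fold on this scale, and Abca12 had at most 1 read per control library. None of the other ABCC, ABCB, ABCD, ABCE or ABCF genes had a P under 0.05, and the medians of these lists lay between 0.055 and 0.23. The sterol transporters of the ABCG subfamily held no called gene, and 1 of the 4 tested, Abcg8, lay lower in each EPS library than in each control, with 2, 3, 2 and 2 reads in EPS replicates 1 to 4 and 8, 10 and 18 in the controls. All its EPS libraries were at or under the floor, so its difference of -0.55 on the log2(CPM + 1) scale (limma, adjusted p = 0.0542) depends on the pseudocount, and it passed a P under 0.01 but not 2-fold on that scale.

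**Figure D5:**
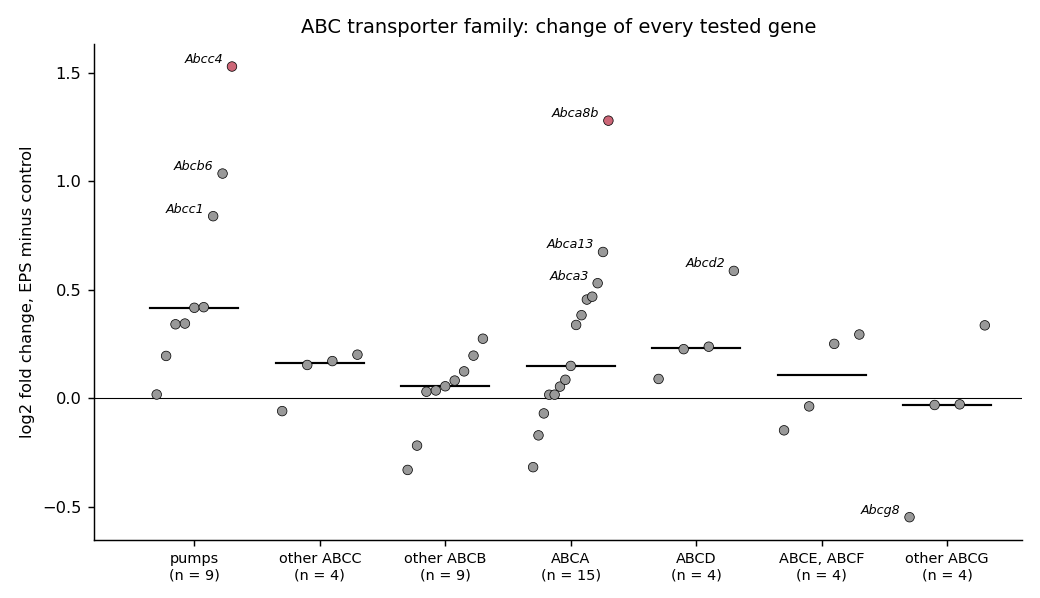
Log2 fold change, EPS minus control, on the log2(CPM + 1) scale (vertical axis) of every tested ABC gene, grouped by subfamily, with black lines at the medians and red points for genes with P under 0.01 and more than 2-fold in limma. Abcc4, at 1.53, and Abca8b, at 1.28, are the called genes.

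Enzymes of glutathione and of the conjugates these pumps carry were taken as a list of their own. Of 50 listed genes of glutathione synthesis, reduction and breakdown and of conjugation to glutathione, glucuronic acid and sulphate, 41 were tested. Of these, 9 were called higher in EPS and 0 lower, where 0.966% and 0.439% of all tested genes were. In limma 3 had an adjusted p under 0.05, against 0.141% of all tested genes. The median log2 fold change was 0.37, against 0.041. On the log2(CPM + 1) scale the largest called changes were in the glutathione S-transferases Gsta1, Gsta4 and Gsta2, with log2 fold changes of 4.43, 4.36 and 3.17. Gsta2 had 0, 3 and 0 reads in the control libraries and Gsta1 had 4, 4 and 10, so their fitted values and this order depend on the pseudocount. The ratio of group means was 96.8 for Gsta1, 30.4 for Gsta4 and at least 82.5 for Gsta2. The other called genes were Mgst2, Gstm1, Gclm, Ugt1a6a, Gstp2 and Gstp1. Gsta4, which clears the lipid peroxidation product 4-hydroxynonenal as a glutathione conjugate, was at 9.49 to 11.9 CPM in the control and at 112, 235, 153 and 807 CPM in EPS replicates 1 to 4, so that EPS replicate 4 was the highest library for Gsta4 as it was for Abcc4 and Abcc1. Gclm, the regulatory subunit of glutamate-cysteine ligase, was at 16.4 to 21.1 CPM in the control. It was at 48.5, 76.0, 47.6 and 145 CPM in EPS replicates 1 to 4, with the same library highest. Of the 9 called conjugation genes, 6 were highest in EPS replicate 4 and 3 (Gstm1, Mgst2 and Ugt1a6a) in EPS replicate 2. Reads of Gsta1 and Gsta2, and of Gstp1 and Gstp2, could have been split between these close paralogs.

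Of 26 regulators known to act on pump genes, all tested, 1 was called higher and 0 lower, and the median log2 fold change was 0.22. At a P under 0.05 in limma, 4 were higher and 0 lower. Ahr, the aryl hydrocarbon receptor, was among these 4 (log2 fold change 0.53, adjusted p = 0.260 from limma). Nfe2l2, which encodes NRF2, was not (0.28, adjusted p = 0.785 from limma). The called gene was Ahrr (log2 fold change 2.72, standard error 0.68, adjusted p = 0.166 from limma). Ahrr, the repressor that the aryl hydrocarbon receptor induces, was at 0.241 to 0.875 CPM in the control and at 1.21, 15.1, 15.7 and 15.03 CPM in EPS replicates 1 to 4, so that EPS replicate 1 stayed near the control. Of 16 heme and porphyrin genes around Abcb6, 1 was called higher and 0 lower, with a median of 0.25, and 3 were higher and 0 lower at a P under 0.05. The called gene was Slc48a1, the heme carrier HRG1, with 87.2 ± 20.8 CPM (SD, n = 3) in control and 349 ± 119 CPM (SD, n = 4) in EPS libraries (log2 fold change 1.96, standard error 0.26, adjusted p = 0.0443 from limma).

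The lists around the pumps' cargo, uptake and anchoring held 1 called gene. None of the 7 PDZ and ERM proteins that hold pumps at the membrane, of the 16 tested uptake carriers or of the 10 leukotriene and prostaglandin genes was called, with median log2 fold changes of 0.081, 0.027 and 0.11. At a P under 0.05 in limma these lists held 0, 1 and 2 genes. The uptake carrier, Slco3a1, was lower in EPS (log2 fold change -0.50, adjusted p = 0.332 from limma). The prostaglandin genes Ptgs1 (0.95, adjusted p = 0.210 from limma) and Ptgs2 (1.09, adjusted p = 0.332 from limma) were higher. Of 26 tested cyclases and phosphodiesterases of cyclic nucleotides, the cargo of Abcc4 and Abcc5, 0 were called higher and 1 lower, while 6 were higher and 1 lower at a P under 0.05. The called gene was the phosphodiesterase Pde7b, at 1.98, 0.843 and 4.61 CPM in the controls (replicates 1, 3 and 4) and 0.372, 0.195, 0.959 and 0.106 CPM under EPS (replicates 1 to 4, log2 fold change -1.19, adjusted p = 0.231 from limma). Its groups overlapped, since EPS replicate 3 was above control replicate 3.

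The genes whose levels followed Abcc4 most closely over the 7 libraries, by Pearson's r on the log2(CPM + 1) scale among 12255 genes with a mean of at least 1 CPM, were Itgb7 (0.991), Paqr8 (0.988), Procr (0.987), Pkn3 (0.981) and Pml (0.978). Each was highest in EPS replicate 4, as Abcc4 was. Itgb7 was at 0 to 0.241 CPM in the control libraries and reached a mean of 1 CPM only through the EPS group. Procr, the endothelial protein C receptor, went from 0.588 to 1.40 CPM in the control to 2.93 to 3.38 CPM in EPS replicates 1 to 3 and 10.5 CPM in EPS replicate 4. Among the pumps the closest was Abcc1, at 0.945, and 0.261% of the genes compared had a higher r. These values describe libraries that differ by group, and a shared group difference alone gives a high r.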

How the data were processed

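RNA-seq of C2C12 myotubes, 3 control and 4 EPS libraries, was analysed. Per the labels, libraries were directional and made from poly(A) RNA, read from both ends over 100 bp. The submitters' processing notes name STAR 2.5.4b and GRCm38. The authors deposited CPM per gene. The counter, annotation and strand setting are not given in the sources used here. The value of 1 read was the smallest CPM above 0, and 100% of values were whole multiples of it within 0.02.

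log2(CPM + 1) of all genes above 0 in at least 1 library was tested with limma 3.58.1 in R 4.3.3 (trended empirical Bayes, no covariate) and adjusted by Benjamini-Hochberg over all 19144. A call is P under 0.01 and more than 2-fold. Count tests (edgeR 4.0.16, DESeq2 1.42.0) are not the main test because the unit is CPM, although the study's methods name edgeR with a P under 0.001. Gene positions and lengths are from GENCODE M21, matched for 92.2% of listed genes, with the transcript of longest coding sequence. Named genes are all pumps, at most 3 called genes of each list with the largest change, and the 5 genes most like the pump with the lowest P. Further called genes are named for completeness. Abcg8, Abca12, Abca13, Ahr, Nfe2l2, Slco3a1, Ptgs1, Ptgs2 and the Gclm, Procr and Ahrr library values were picked after their values were seen. The members and lists were chosen with earlier results of these data known. The tests were tried on simulated reads. One further ratio is not reported here. Tried in turn were other pseudocounts (0.1 and 0.5), genes with a mean of at least 1 CPM, other scalings and tests, a P under 0.001, the replicate block and leaving out each library. Removal of the transcript length trend was added after seeing the data.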

Additional observations from a re-analysis of the deposited data

Results flagged for a closer look

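Of 22 genes screened in the EPS group, which are the pumps and the called genes of the lists, 3 had 1 library far from the other EPS libraries by Dixon's criterion for 4 samples, which chance exceeds in about 1 in 20 groups. Abcc2 in EPS replicate 2, at 0.0487 CPM, stood apart by a single read against 0 in the others. Abcc3 was highest in EPS replicate 4, at 0.372 CPM, or 7 reads, where the next library was at 0.0931 CPM. Ahrr was lowest in EPS replicate 1, at 1.21 CPM, against 15.03 CPM in the next library. Abcc4 in EPS replicate 4 fell just short of the criterion.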

How the results depend on the processing

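Abcc4 kept its direction and its call in 18 of 19 alternative fits, with log2 fold changes from 1.22 to 1.75, and lost the call with the replicate number as a block (1.62), where the replicate numbers are not known to pair cultures and the fit has fewer residual degrees of freedom. Deviations of same-numbered libraries correlated across 12256 genes at 0.25, -0.45 and 0.068 for replicates 1, 3 and 4. The number of called pumps, 1 in limma, was 2 (Abcc4 and Abcb6) with a pseudocount of 0.1 or 0.5, a minimum mean of 1 CPM or robust empirical Bayes, 0 with the replicate block or at a P under 0.001, and 1 to 2 when each library was left out, with 2 without control replicate 4 or EPS replicate 2. Abcc2, on 1 read, changed sign after quantile normalization (-0.0043) and after removal of the length trend (-0.074), and no other pump did in any fit. Over all genes, the 269 calls became 601 with a pseudocount of 0.1, 629 and 631 in edgeR's quasi-likelihood test with and without TMM, 693 in its exact test, 585 in DESeq2, 161 with the replicate block and 106 at a P under 0.001, and 209 to 325 with 1 library left out. Calls higher in EPS made up 51.6% after quantile normalization, 52.3% in edgeR with TMM, 54.2% in DESeq2 and 49.0% after removal of the length trend. The 13 calls among the pathway lists were 20 with a pseudocount of 0.1 and 11 to 17 with 1 library left out. Of the 6 pumps with a mean of at least 1 CPM, a restriction chosen after seeing the data, 4 to 5 had every EPS library above every control with 1 library left out, where 10.8% to 19.3% of such genes did. The cause of these shifts was not tested. Depth limits Abcc2, Abcc3 and Abcb1a, each with at most 21 reads per library.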
